A study of Homo sapiens with 24 samples.

Results

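The miR-200 family was followed in the human line SBC-3, which derives from a small cell cancer of the lung, by counting every mature miRNA in 24 small RNA libraries. Its 9 mature products were taken by position as both arms of the hairpins in 2 clusters, and they were 9 of the 2652 mature miRNAs in the tables. The cluster on chromosome 1 gives 5 of them (miR-200b-5p, miR-200b-3p, miR-200a-5p, miR-200a-3p and miR-429), and the cluster on chromosome 12 gives 4 (miR-200c-5p, miR-200c-3p, miR-141-5p and miR-141-3p). There were 8 groups of 3 libraries. Cells received a small interfering RNA (siRNA) against SFPQ (siSFPQ-2 or siSFPQ-3), an siRNA against NONO (siNONO-3 or siNONO-4), an antisense oligonucleotide (ASO) against NEAT1 (ASO-NEAT1-1047 or ASO-NEAT1-1473), a control siRNA (siCtrl) or a control ASO (ASO-Ctrl). Every group, controls included, was transfected with Lipofectamine RNAiMAX at 10 nM of its reagent and harvested after 72 h, so that no group was untransfected. Libraries were made with a QIAseq kit from 100 ng of RNA with added spike-ins, and the loss of each target was not analysed here.

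The miR-200 family is the best known miRNA family of epithelial cells. Its guide strands restrain the transcription factors ZEB1 and ZEB2, both of which in turn bind and repress the promoters of the miR-200 clusters, and the family is lost when epithelial cells take on a mesenchymal form. SFPQ and NONO are nuclear RNA-binding proteins that pair with each other, and NEAT1 is the long noncoding RNA on which both gather in paraspeckles. In HeLa cells, these proteins and NEAT1 have been described as binding primary miRNA transcripts and aiding their processing. The comparisons ask how the miRNAs of the cell change when each of the 3 is depleted.

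The sequences are shown first because the seed, bases 2 to 8 from the 5′ end, decides which targets a miRNA can pair with, and it splits the family across the clusters. A mature sequence was found for 8 of the 9 members in RefSeq (GRCh38.p14). Seeds are in capitals, and every sequence runs 5′ to 3′. The guide strands with the seed AAUACUG were these 3.
miR-200b-3p: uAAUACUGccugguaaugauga
miR-200c-3p: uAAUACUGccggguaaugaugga
miR-429: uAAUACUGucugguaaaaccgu
The guide strands with the seed AACACUG were these 2.
miR-200a-3p: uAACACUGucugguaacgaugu
miR-141-3p: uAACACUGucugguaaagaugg
The passenger strands carried other seeds, and these 3 had a sequence.
miR-200b-5p: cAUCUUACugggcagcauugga
miR-200a-5p: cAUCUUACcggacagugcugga
miR-200c-5p: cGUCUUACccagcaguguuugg

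Each seed group of guide strands took members from both clusters. Counting positions from the 5′ end with the first-named base that of miR-200b-3p, miR-200c-3p differed from it by U11G and A22G and was 1 base longer. With the base of miR-200a-3p first, miR-141-3p differed from it by C17A and U22G. The seeds themselves differed at 1 base, U4C, as between miR-200b-3p and miR-200a-3p. None of the 2370 human mature sequences searched carried AAUACUG or AACACUG outside the family, while GUCUUAC of miR-200c-5p was shared with miR-550a-3p. The split of reads within each near-identical pair is uncertain, since the sources do not say how reads matching both members were counted. The 2 members of each pair did not hold a fixed proportion. miR-200c-3p had between 2.38 and 5.18 counts for each count of miR-200b-3p across the 24 libraries, and miR-141-3p had between 1.42 and 2.35 for each of miR-200a-3p.

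On hg38, the chromosome 1 members lie on the plus strand within 1953 bases, with miR-200b-5p (MIMAT0004571) at 1167124 to 1167145, miR-200b-3p (MIMAT0000318) at 1167160 to 1167181, miR-200a-5p (MIMAT0001620) at 1167878 to 1167899, miR-200a-3p (MIMAT0000682) at 1167916 to 1167937 and miR-429 (MIMAT0001536) at 1169055 to 1169076. RefSeq places these hairpins inside the long noncoding host gene MIR200BHG, at 1162877 to 1170338. The chromosome 12 members also lie on the plus strand, within 474 bases, with miR-200c-5p (MIMAT0004657) at 6963703 to 6963724, miR-200c-3p (MIMAT0000617) at 6963742 to 6963764, miR-141-5p (MIMAT0004598) at 6964113 to 6964134 and miR-141-3p (MIMAT0000432) at 6964155 to 6964176. In GENCODE v29 they are intronic to the long noncoding RNA MIR200CHG, and each hairpin is an annotated miRNA gene.

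Members of both clusters were higher in siSFPQ cells, as given below, while miR-429 was not called. The start sites of the 2 host genes are shown, each from 250 bases before to 50 bases after the RefSeq start (GRCh38.p14, plus strand). Capitals mark the letters CACCTG, searched on both strands (CAGGTG on the other), which is the kind of E-box that ZEB proteins are known to bind.
MIR200BHG, chr1:1162627-1162926: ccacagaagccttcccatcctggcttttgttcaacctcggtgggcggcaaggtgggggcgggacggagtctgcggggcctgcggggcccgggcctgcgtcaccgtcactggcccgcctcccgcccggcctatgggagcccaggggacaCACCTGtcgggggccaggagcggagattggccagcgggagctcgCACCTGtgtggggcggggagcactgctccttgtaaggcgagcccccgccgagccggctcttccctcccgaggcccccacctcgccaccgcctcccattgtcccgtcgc
MIR200CHG, chr12:6962995-6963294: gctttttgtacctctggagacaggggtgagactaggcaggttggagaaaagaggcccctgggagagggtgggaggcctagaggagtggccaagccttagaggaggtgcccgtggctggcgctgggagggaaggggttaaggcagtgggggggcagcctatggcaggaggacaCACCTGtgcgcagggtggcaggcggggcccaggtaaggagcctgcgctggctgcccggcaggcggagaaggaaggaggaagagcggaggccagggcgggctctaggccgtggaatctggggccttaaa
The MIR200BHG window held 2 such matches, which began at -102 and -58 from the start, and the MIR200CHG window held 1, at -78. Of 35097 RefSeq promoter windows of the same length, 20.6% held at least 1 match and 3.49% at least 2. A match is a string of letters and not a measured binding site. The part of these matches in the change of the family was not tested.

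The libraries held between 2038382 and 4279644 miRNA counts. Levels are given in CPM, the usual count scaled to sequencing depth, with library totals adjusted by TMM, and 3 counts corresponded to between 0.701 and 1.47 CPM of the unscaled total, depending on the library. Libraries were compared with edgeR's quasi-likelihood test over the 626 miRNAs that passed its filter on low counts, and a member was called at a Benjamini-Hochberg adjusted p under 0.05 over those 626. A log2 fold change is given with its standard error. Nothing in the labels says that the 3 libraries of a group came from separate cultures, so the p-values measure only the spread between these libraries. In the second principal component, which held 9.94% of the variance, 1 siCtrl library (replicate 1) and 1 ASO-NEAT1-1047 library (replicate 3) were far from their groups, and results that rest on them are given with and without them. Of the neural and neuroendocrine miRNAs, miR-9-5p and miR-7-5p averaged 90578 and 16054 CPM in siCtrl cells, but miR-375-3p averaged 0.669 ± 0.409 CPM there (SD, n = 3), under the level of 3 counts. miR-375-3p is described with its list, since it was higher in siSFPQ cells.

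The family was a minor part of the miRNAs of control cells and rose in SFPQ-depleted cells. Its 9 members summed to 573, 493 and 511 CPM in the siSFPQ-2 libraries and to 596, 708 and 599 CPM in the siSFPQ-3 libraries, against 77.5, 87.3 and 90.8 CPM in the siCtrl libraries. The pooled mean was 6.81 times that of siCtrl, at 580 ± 76.8 CPM in 6 siSFPQ libraries and 85.2 ± 6.87 CPM in 3 siCtrl libraries (SD). Of the 9 members, 7 passed the filter and could be tested. The passengers miR-200b-5p and miR-200a-5p did not, with 2 and 7 counts in all 24 libraries together. miR-200c-5p passed the filter only through its siSFPQ libraries, so that it had to differ, and its values are given without a test. Of the other 6 tested members, 5 were higher in siSFPQ than in siCtrl cells and none was lower, while 25.6% of all 626 tested miRNAs were called higher and 22.7% lower, 160 and 142 miRNAs. That split was 252 higher and 67 lower with library totals in place of TMM and 182 and 90 with spike-in totals, and the same 5 members were called under both. miR-429 was the member that did not pass. In these bulk samples more cells that carry a miRNA and more of it per cell cannot be told apart.

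**Figure D1:**
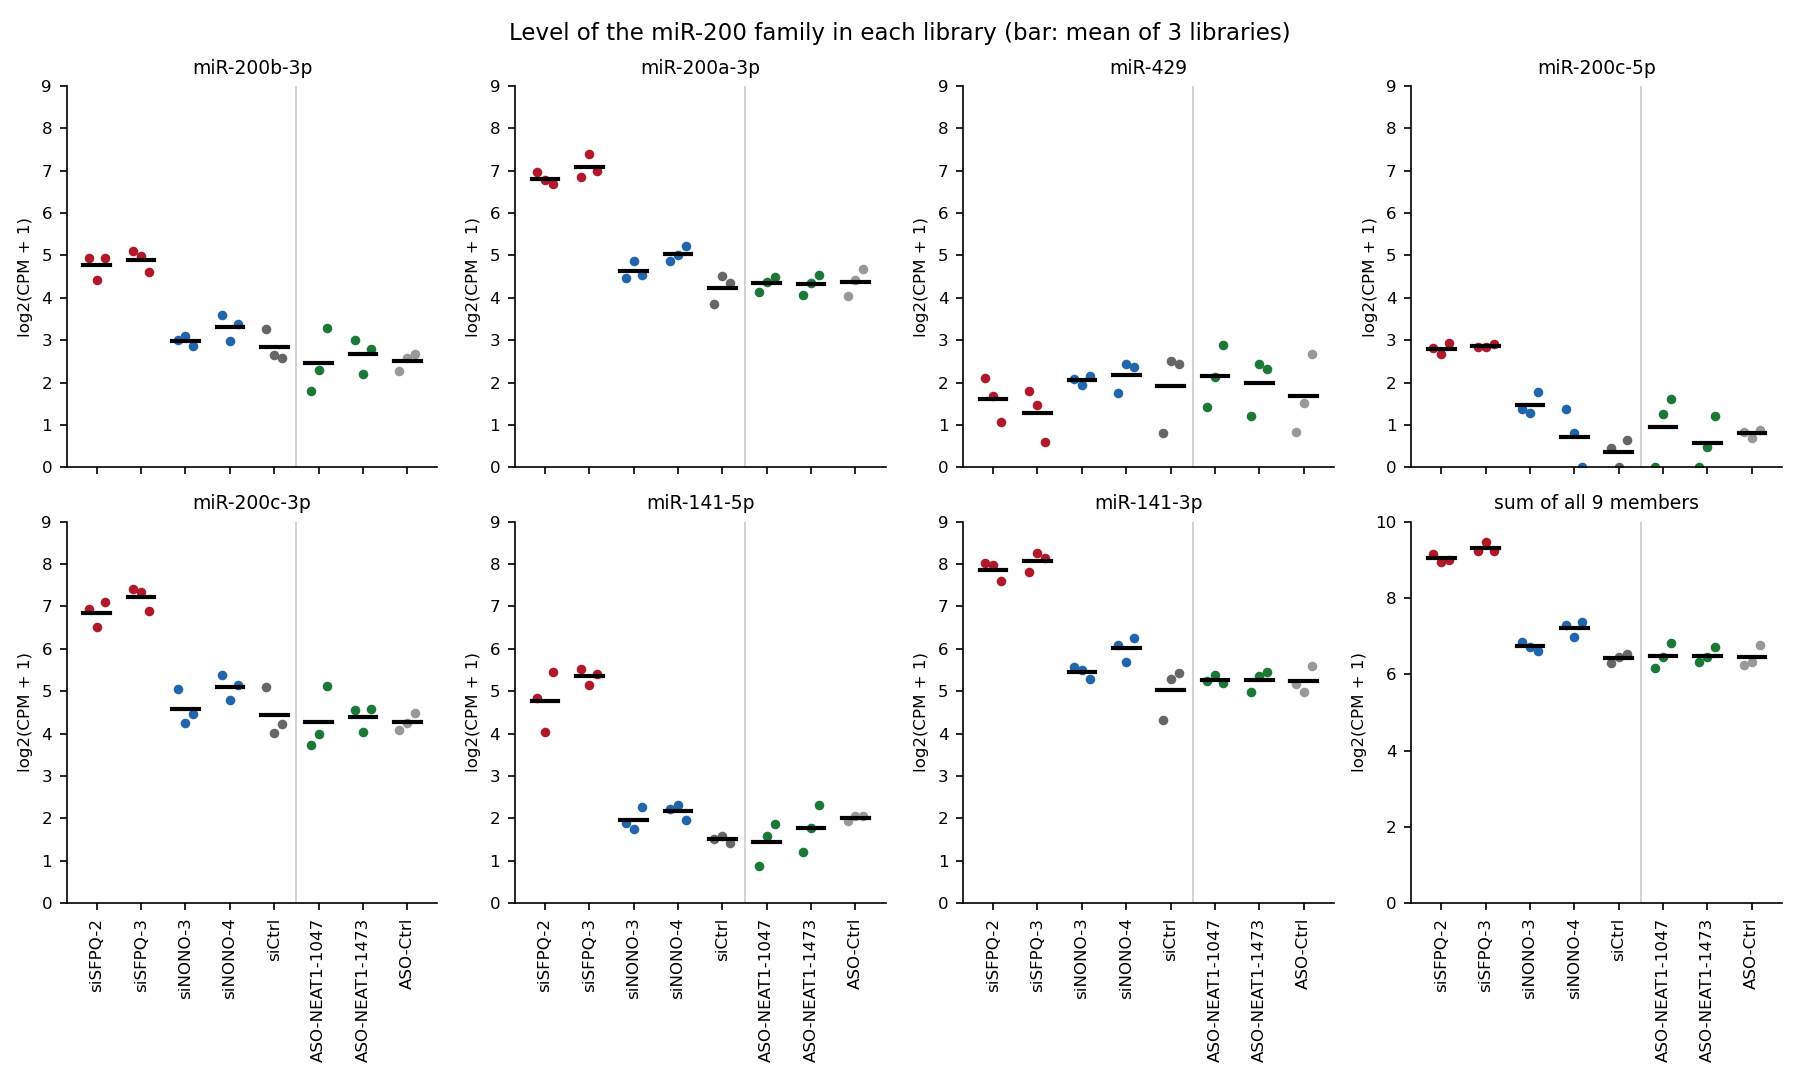
Level of each tested member, and of the sum of the 9 members, in every library, as log2(CPM + 1) on the vertical axis with the groups along the horizontal axis. Points are libraries and bars are means of 3. For every tested member except miR-429, the 6 siSFPQ libraries lie above all 18 others.

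Of the guide strands with the AACACUG seed, miR-141-3p was the most abundant member of the family. It stood at 259, 249.6 and 194 CPM with siSFPQ-2 and at 223, 306 and 284 CPM with siSFPQ-3, against 19.1, 38.2 and 42.4 CPM with siCtrl. The 6 siSFPQ libraries did not overlap the siCtrl libraries, among which replicate 1 was the lowest. Its log2 fold change was 2.93 ± 0.25 (edgeR, adjusted p = 2.34e-09). miR-200a-3p, which shares that seed but comes from chromosome 1, had 124, 108 and 101 CPM with siSFPQ-2 and 115, 168 and 126 CPM with siSFPQ-3, against 13.5, 21.9 and 19.3 CPM with siCtrl. Its libraries did not overlap either, and its log2 fold change was 2.75 ± 0.23 (edgeR, adjusted p = 1.63e-09).

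Of the guide strands with the AAUACUG seed, miR-200c-3p from chromosome 12 had 123, 90.6 and 136 CPM with siSFPQ-2 and 171, 160.2 and 117 CPM with siSFPQ-3, against 33.3, 15.3 and 17.6 CPM with siCtrl. Here siCtrl replicate 1 was the highest control library, the opposite of its place for miR-141-3p and miR-200a-3p, and the groups did not overlap. The log2 fold change of miR-200c-3p was 2.57 ± 0.33 (edgeR, adjusted p = 9.4e-07). miR-200b-3p, the least abundant of the guide strands that rose, had 29.6, 20.5 and 29.6 CPM with siSFPQ-2 and 33.2, 30.9 and 23.5 CPM with siSFPQ-3, against 8.62, 5.31 and 4.95 CPM with siCtrl. Its groups were also separate, with a log2 fold change of 2.13 ± 0.32 (edgeR, adjusted p = 9.74e-06).

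miR-429, the last hairpin of the chromosome 1 cluster and the third carrier of the AAUACUG seed, did not follow its neighbours. It had 3.32, 2.21 and 1.098 CPM with siSFPQ-2 and 2.49, 1.75 and 0.517 CPM with siSFPQ-3, against 0.749, 4.65 and 4.40 CPM with siCtrl. The groups overlapped, since siCtrl replicate 1 lay below 5 of the 6 siSFPQ libraries. The log2 fold change was -0.74 ± 0.60 (edgeR, adjusted p = 0.328), and with both libraries that stand apart left out it was -1.27 ± 0.55 (adjusted p = 0.0647). No test passed in either fit. Set against miR-200a-3p, 1117 bases before it on the same strand, miR-429 had 2.68, 2.03 and 1.08 counts for every 100 counts of miR-200a-3p with siSFPQ-2 and 2.16, 1.04 and 0.413 with siSFPQ-3, against 5.56, 21.2 and 22.9 with siCtrl. All 18 libraries outside siSFPQ lay between 5.00 and 29.7 on that measure, above the 6 siSFPQ libraries. miR-429 rested on 42 counts in the 6 siSFPQ libraries and on 24 in the 3 siCtrl libraries.

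Among the members given a test, miR-141-5p, a passenger strand of the chromosome 12 cluster, showed the largest fold change and the fewest control counts. miR-141-5p had 27.8, 15.5 and 42.8 CPM with siSFPQ-2 and 45.2, 34.4 and 41.3 CPM with siSFPQ-3, against 1.87, 1.99 and 1.65 CPM with siCtrl. The lowest siSFPQ library was above the highest siCtrl library, and the log2 fold change was 4.16 ± 0.39 (edgeR, adjusted p = 7.16e-09). These levels rest on 775 counts with siSFPQ and 14 with siCtrl, a ratio per scaled count of 18.8 (exact 95% counting interval 11.1 to 34.6). The other passenger of that cluster, miR-200c-5p, passed the filter only through its siSFPQ libraries, so its values are a description. It had 6.03, 5.36 and 6.59 CPM with siSFPQ-2 and 6.11, 6.14 and 6.46 CPM with siSFPQ-3, against 0.375, 0 and 0.550 CPM with siCtrl. All siCtrl libraries were under the level of 3 counts. With 135 counts against 2, the ratio was 22.9 with an exact 95% counting interval of 6.23 to 191, and the fitted log2 fold change was 4.32 ± 0.77. Without siCtrl replicate 2, the library with no count of it, that value was 3.67 ± 0.83. These intervals cover counting error only. Among 626 tested miRNAs, 19.8% had every siSFPQ library above every siCtrl library, as the 5 members that rose did. Against all 18 other libraries, 12.6% did, the same 5 members among them.

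The 2 siRNAs against SFPQ gave like values for the members. Each alone called the same 5 members higher, when 23.2% of all tested miRNAs were called higher with siSFPQ-2 and 22.7% with siSFPQ-3. With library totals the miRNAs called were 220 higher and 47 lower for siSFPQ-2, against 145 and 97 in the TMM fit. For siSFPQ-3 they were 234 and 51, against 142 and 136. With spike-in totals the 2 siRNAs differed, at 107 higher and 94 lower for siSFPQ-2 and 205 and 45 for siSFPQ-3. The log2 fold change of miR-141-3p was 2.82 ± 0.26 for the first siRNA (siSFPQ-2), against 3.03 ± 0.27 for siSFPQ-3. For miR-200b-3p, the smallest of the 5, it was 2.06 ± 0.35 for siSFPQ-2 and 2.20 ± 0.34 for siSFPQ-3. Set against each other, siSFPQ-3 over siSFPQ-2, no tested member was called, and 0.639% of the 626 were. No member had an unadjusted p under 0.05 there, and DESeq2 called none. The largest of these differences between the siRNAs was 0.50 ± 0.30 for miR-141-5p, and that of miR-429 was -0.47 ± 0.70. Leaving out both libraries that stand apart, the same 5 members were called for SFPQ, with log2 fold changes between 2.39 for miR-200b-3p and 4.14 for miR-141-5p. In that fit miR-200c-3p was at 2.97 ± 0.29 and miR-141-3p at 2.61 ± 0.24, so that the order of these guides was the reverse of that in the full fit.

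**Figure D2:**
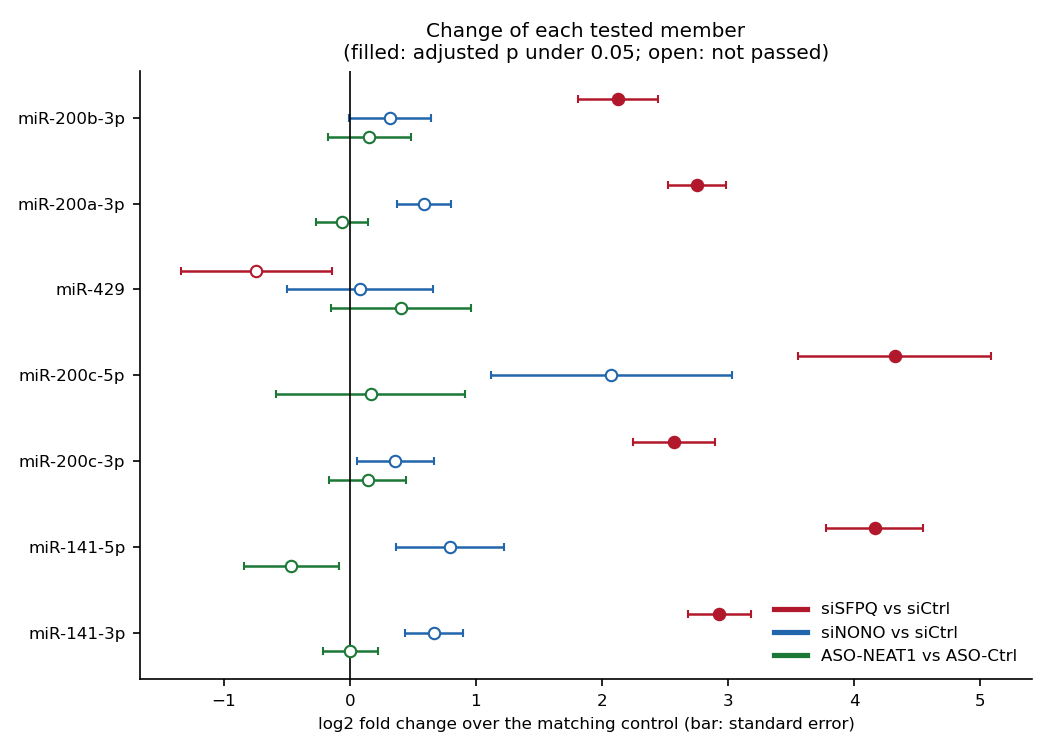
Log2 fold change of each tested member over its matching control (horizontal axis) with its standard error as a bar, for siSFPQ and siNONO against siCtrl and for ASO-NEAT1 against ASO-Ctrl. Filled points passed an adjusted p of 0.05, which 6 members did for siSFPQ and none did for siNONO or ASO-NEAT1. One of these 6 is miR-200c-5p, which is in the fit only through its siSFPQ libraries.

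NONO depletion left the family nearer to its control level. The 9 members summed to 114, 105 and 97.6 CPM with siNONO-3 and to 155, 124 and 163 CPM with siNONO-4, against 77.5, 87.3 and 90.8 CPM with siCtrl. Every siNONO library was above every siCtrl library on this sum, and the pooled mean was 1.48 times that of siCtrl. No member was called (edgeR), as against 1.6% of the 626 tested miRNAs in either direction, 6 higher and 4 lower (17 and 4 with library totals, 3 and 3 with spike-in totals). At an unadjusted p under 0.05 there were 3, namely miR-141-3p, miR-200a-3p and miR-200c-5p, the last of which is in the fit only through its siSFPQ libraries. DESeq2 called no member for the pooled siRNAs. miR-141-3p had 46.6, 44.0 and 38.2 CPM with siNONO-3 and 66.9, 50.4 and 75.8 CPM with siNONO-4, against 19.1, 38.2 and 42.4 CPM with siCtrl. The siNONO-4 libraries were all above the siCtrl libraries, while the siNONO-3 libraries reached into their range. The pooled log2 fold change was 0.67 ± 0.23 (edgeR, adjusted p = 0.163), that with siNONO-4 alone was 0.96 ± 0.26 (adjusted p = 0.0926, where 0.958% of miRNAs were called), and the pooled value without siCtrl replicate 1 was 0.33 ± 0.22 (adjusted p = 0.424). For siNONO-4 alone the call of miR-141-3p turned on the method, since it passed with DESeq2 at 0.94 ± 0.27 (adjusted p = 0.0281), with library totals in place of TMM (edgeR, adjusted p = 0.0481) and with a replicate block (edgeR, adjusted p = 0.0483). For miR-200a-3p the pooled value was 0.59 ± 0.21 (adjusted p = 0.179), and 0.35 ± 0.21 without siCtrl replicate 1 (adjusted p = 0.376). With siNONO-4 alone miR-200a-3p was at 0.80 ± 0.24 (adjusted p = 0.157), and it passed there with library totals (adjusted p = 0.0481). miR-200c-3p moved the other way when that library was left out, with 0.36 ± 0.31 in the full fit (adjusted p = 0.707) and 0.75 ± 0.32 without it (adjusted p = 0.209). With both libraries that stand apart left out, miR-200c-3p passed for siNONO-4 alone at 1.03 ± 0.29 (edgeR, adjusted p = 0.0436). miR-141-5p had every siNONO library above every siCtrl library, at 2.69, 2.37 and 3.82 CPM with siNONO-3 and 3.69, 3.94 and 2.89 CPM with siNONO-4, against 1.87, 1.99 and 1.65 CPM with siCtrl. Its log2 fold change of 0.79 ± 0.43 did not pass (adjusted p = 0.526). It was the 1 tested member without overlap, as were 3.99% of the tested miRNAs in that direction. The other changes with siNONO were 2.07 ± 0.96 for miR-200c-5p on 25 counts against 2 (1.379 ± 1.02 without siCtrl replicate 2), 0.32 ± 0.32 for miR-200b-3p and 0.08 ± 0.58 for miR-429.

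Tested directly, the difference between the knockdowns passed for the same 5 members. The siSFPQ groups were higher than the siNONO groups in each, with 29.7% of all tested miRNAs called in that direction. These were 186 miRNAs higher and 168 lower, against 257 and 93 with library totals and 228 and 95 with spike-in totals. miR-141-5p differed the most, at 34.5 ± 11.3 CPM in siSFPQ cells and 3.23 ± 0.665 CPM in siNONO cells (SD, n = 6 each), with a log2 fold change of 3.37 ± 0.26 (edgeR, adjusted p = 1.41e-10). miR-141-3p averaged 253 ± 40.6 CPM in siSFPQ cells and 53.7 ± 14.6 CPM in siNONO cells, with 2.26 ± 0.18 (adjusted p = 2.72e-10). The remaining 3 lay between 1.81 ± 0.23 for miR-200b-3p and 2.21 ± 0.24 for miR-200c-3p. In each of the 5, every siSFPQ library was above every siNONO library, as were 19.5% of the tested miRNAs. miR-429 was at -0.82 ± 0.47 (adjusted p = 0.141).

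NEAT1 depletion gave no call in the family or anywhere else. The 9 members summed to 70.5, 86.0 and 111 CPM with ASO-NEAT1-1047 and to 78.6, 86.0 and 103 CPM with ASO-NEAT1-1473, against 74.7, 79.7 and 108 CPM with ASO-Ctrl. The ranges overlapped and the pooled mean was 1.02 times that of ASO-Ctrl. edgeR called 0 of the 626 tested miRNAs (0%), with 19 at an unadjusted p under 0.05, none of them a member, and DESeq2 called none. The members' log2 fold changes lay between -0.46 ± 0.38 for miR-141-5p and 0.41 ± 0.56 for miR-429. miR-141-3p had 36.6, 40.6 and 35.7 CPM with ASO-NEAT1-1047 and 30.6, 40.2 and 43.0 CPM with ASO-NEAT1-1473, against 35.2, 30.6 and 47.1 CPM with ASO-Ctrl. These libraries overlapped throughout, and the log2 fold change was 0.01 ± 0.22. The difference between the SFPQ effect over siCtrl and the NEAT1 effect over ASO-Ctrl passed for the same 5 members, where 12.1% of the tested miRNAs were called in that direction. These were 76 miRNAs higher and 71 lower, against 174 and 40 with library totals and 87 and 40 with spike-in totals. It ran from 1.97 ± 0.46 for miR-200b-3p (adjusted p = 0.00244) to 4.62 ± 0.55 for miR-141-5p (adjusted p = 9.88e-07), and for miR-429 it was -1.15 ± 0.82 (adjusted p = 0.309). The 2 controls were near each other for the family, with sums of 87.5 ± 18.04 CPM in ASO-Ctrl and 85.2 ± 6.87 CPM in siCtrl cells (SD, n = 3 each). Between them no member was called, none had an unadjusted p under 0.05 and DESeq2 called none, where edgeR called 0.479% of the tested miRNAs.

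Over the 8 groups the family's mean sum came in the order siSFPQ-3 at 634 CPM, siSFPQ-2 at 525, siNONO-4 at 147, siNONO-3 at 106, ASO-NEAT1-1473 at 89.3, ASO-NEAT1-1047 at 89.2, ASO-Ctrl at 87.5 and siCtrl at 85.2 CPM. Neighbours in that order were separate in every library down to siNONO-3, and from siNONO-3 on each group overlapped the next. siNONO-3 and siCtrl, the first and last of that run, did not overlap. In each of the 5 members that rose and in miR-200c-5p, siSFPQ-3 and siSFPQ-2 came first and overlapped each other, and there was a gap between them and the next group. siNONO-4 came next in the 5, and siNONO-3 in miR-200c-5p, at 1.82 ± 0.54 CPM. In miR-200a-3p and miR-141-3p siNONO-4 did not overlap siNONO-3 either, though for miR-200a-3p the nearest libraries were at 28.44 and 28.38 CPM. The share of all miRNAs separate in that way was not computed, and siNONO-4 was not tested against siNONO-3. For miR-429 the order was another one, with ASO-NEAT1-1047 first at 3.83 ± 2.41 CPM and siSFPQ-3 last at 1.59 ± 1.00 CPM (SD, n = 3), and no pair of neighbours was separate.

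The make-up of the family was alike across groups apart from its minor members. miR-141-3p held 43.7 ± 5.26% of the family's counts in the 6 siSFPQ libraries and 41.9 ± 6.22% in the 18 others, miR-200c-3p held 22.9 ± 4.0% and 23.0 ± 6.49%, and miR-200a-3p held 21.3 ± 1.59% and 22.04 ± 2.69%. miR-141-5p held 5.95 ± 1.99% in siSFPQ libraries and 2.62 ± 0.82% in the others, while miR-429 held 0.332 ± 0.181% and 3.27 ± 1.51% (SD). The 6 siSFPQ libraries ranged from 0.0862% to 0.580% for miR-429, below the lowest other library at 0.966%.

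**Figure D3:**
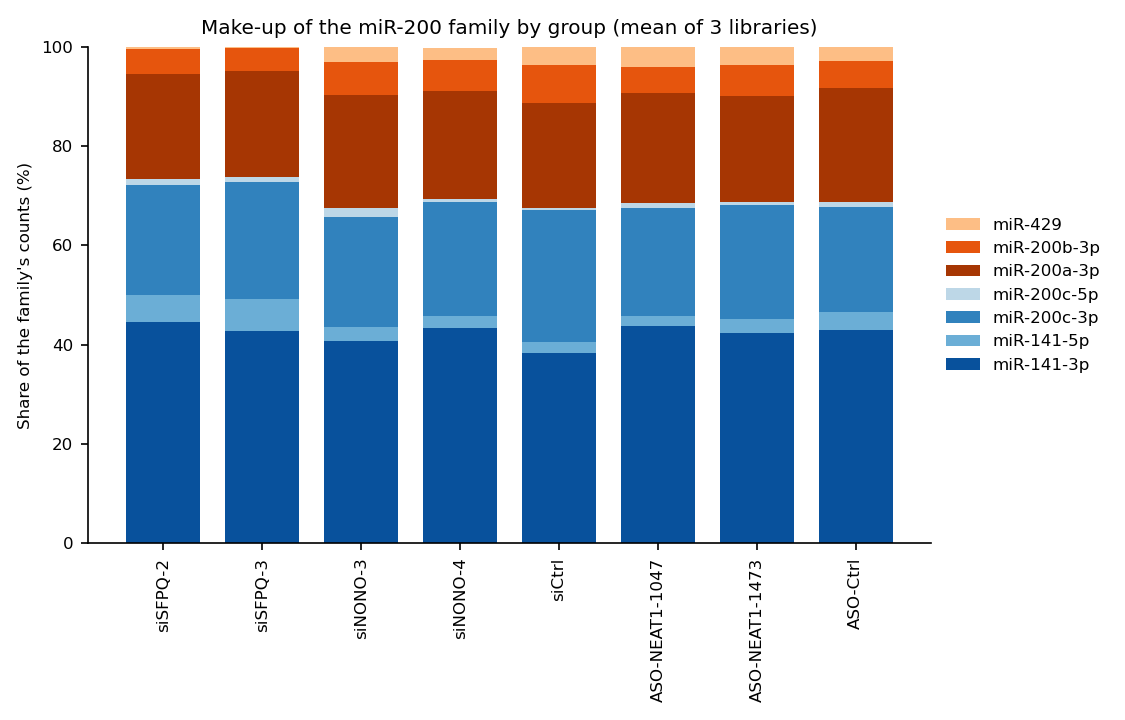
Share of the family's counts held by each tested member (vertical axis, percent) in each group, as the mean of 3 libraries. Blue marks the chromosome 12 cluster and orange the chromosome 1 cluster, and the miR-429 band is thin in both siSFPQ groups, which averaged 0.414% and 0.250%.

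Both clusters rose, and that on chromosome 12 somewhat more. The chromosome 12 members summed to 426 ± 52.9 CPM in siSFPQ cells and 57.4 ± 4.12 CPM in siCtrl cells, 7.42 times as much, and the chromosome 1 members to 154 ± 25.5 CPM and 27.8 ± 4.57 CPM, 5.54 times as much (SD, n = 6 and 3). On a log2 scale the summed counts of chromosome 12 over those of chromosome 1 stood at 1.41, 1.46 and 1.52 with siSFPQ-2 and at 1.56, 1.33 and 1.58 with siSFPQ-3, against 1.26, 0.80 and 1.12 with siCtrl. The 6 siSFPQ libraries were above the siCtrl libraries, by 0.42 in the mean with a pooled SD of 0.15, but libraries of siNONO-3, siNONO-4 and ASO-Ctrl reached 1.40, 1.43 and 1.45. No p-value is given for this ratio, which sums the members. With the mean of the members' log2 CPM in place of summed counts, the difference was 1.63, a measure in which miR-429 weighs as much as miR-200a-3p.

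Within the groups, the 2 near-identical pairs of guide strands varied together across clusters. Taking each library's departure from its group mean in log2 CPM, miR-200b-3p and miR-200c-3p, from different clusters but with 1 seed, had r = 0.89 over 24 libraries, and miR-200a-3p and miR-141-3p had r = 0.69. Without the 2 libraries that stand apart these were 0.76 and 0.61. Members of 1 cluster with different seeds had r = 0.08 for miR-200b-3p with miR-200a-3p and r = -0.31 for miR-200c-3p with miR-141-3p, and 0.20 and 0.13 without those libraries. The exception was miR-429, which had r = 0.75 with miR-200a-3p of its own cluster and 0.57 with miR-141-3p, of neither its cluster nor its seed. With miR-200b-3p, of its own cluster and seed, miR-429 had r = 0.09, and with miR-200c-3p, of its seed only, 0.03. These are descriptions over libraries that each share 1 depth and 1 preparation. The summed AAUACUG guides over the summed AACACUG guides came to 1.31 in siCtrl replicate 1 and 0.86 in ASO-NEAT1-1047 replicate 3, the highest values of the 24, and these are the same libraries that stood apart in the second principal component. In the other siCtrl libraries the ratio was 0.42 and 0.44, and in the siSFPQ libraries it lay between 0.32 and 0.61. The part of those 2 libraries' preparation in this balance was not tested.

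**Figure D4:**
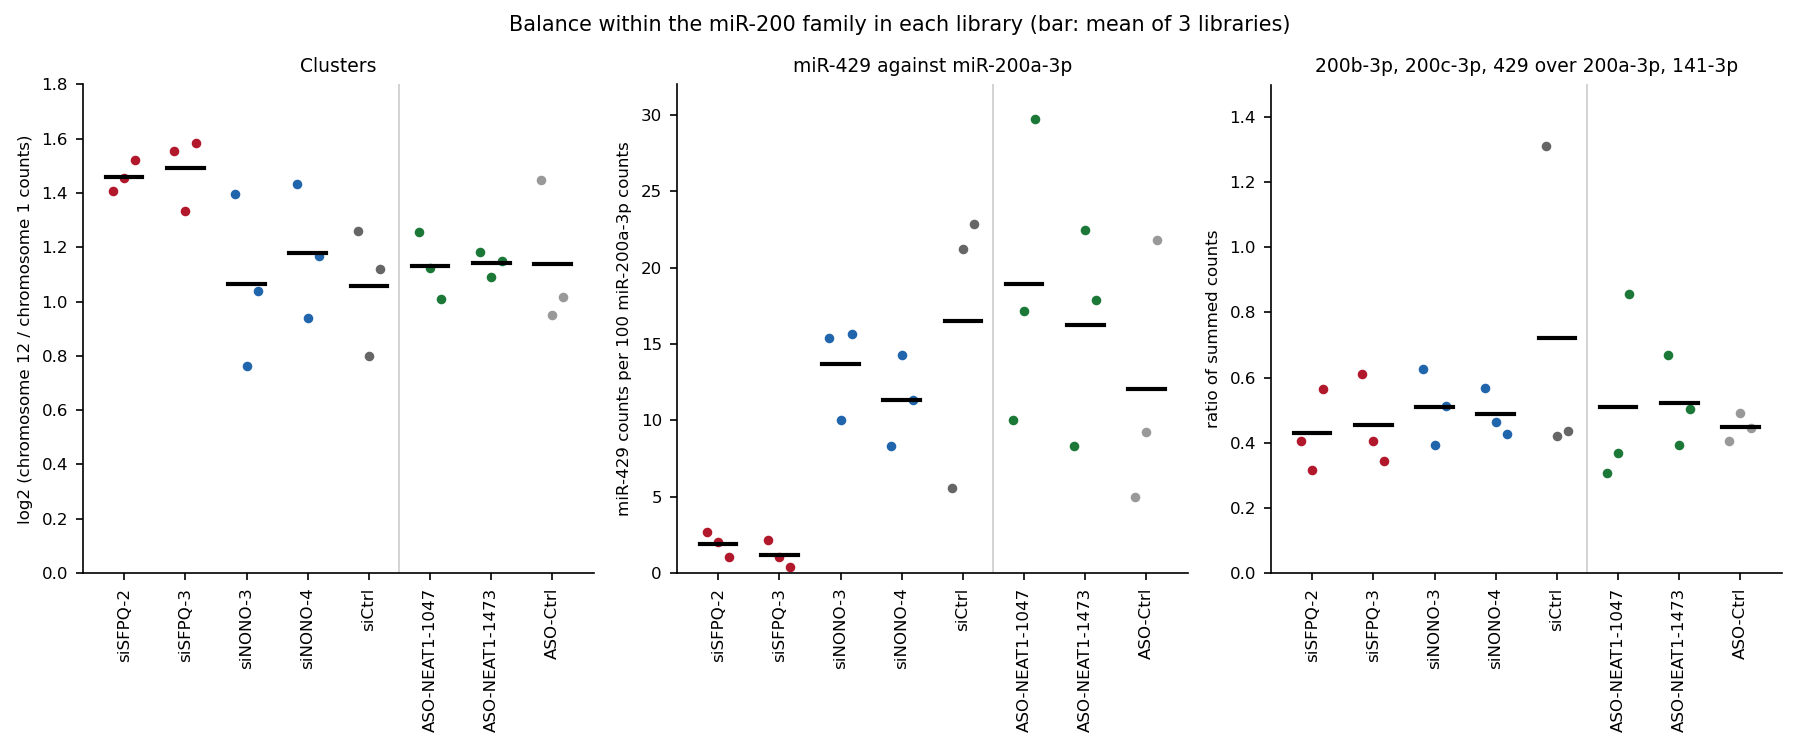
Balance within the family by library, as the log2 ratio of chromosome 12 to chromosome 1 counts, as miR-429 counts per 100 miR-200a-3p counts, and as the ratio of summed AAUACUG guides (miR-200b-3p, miR-200c-3p, miR-429) to summed AACACUG guides (miR-200a-3p, miR-141-3p). Points are libraries and bars are means of 3. The siSFPQ libraries lie lowest in the middle panel, and siCtrl replicate 1 stands alone at 1.31 in the right panel.

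In this family the 3p arm is the guide of each hairpin, and the 5p arm held a small share of its hairpin's counts. For mir-200b the 5p arm had 2 of 625 counts in siSFPQ cells (0.320%, exact 95% interval 0.0388 to 1.15) and 0 of 347 in the other 18 libraries. For mir-200a it had 3 of 2798 in siSFPQ cells (0.107%, 0.0221 to 0.313) and 4 of 1233 in the others (0.324%, 0.0885 to 0.829). mir-200c gave 135 of 3140 in siSFPQ cells (4.30%, 3.62 to 5.07) and 52 of 1351 in the others (3.85%, 2.89 to 5.02). In siCtrl cells alone mir-200c gave 2 of 169 (1.18%, 0.144 to 4.21). These shares overlapped within their counting intervals. mir-141 gave 775 of 6437 in siSFPQ cells (12.04%, 11.3 to 12.9) and 149 of 2511 in the others (5.93%, 5.04 to 6.93), and here they did not. These intervals pool reads over libraries and leave out the spread between libraries, whose shares overlapped for mir-141, as given next.

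By library, the 5p share of mir-141 was 9.67, 5.83 and 18.1% with siSFPQ-2 and 16.9, 10.1 and 12.7% with siSFPQ-3, against 8.93, 4.96 and 3.75% with siCtrl. The groups overlapped, with siSFPQ-2 replicate 2 below siCtrl replicate 1. The 5p to 3p ratio was tested with limma over the 133 hairpins with a mean of at least 10 counts in the lower arm, of which 24.1% were called for siSFPQ against siCtrl, 6.77% toward the 5p arm. The log2 change of mir-141 was 1.01 ± 0.40 (limma, adjusted p = 0.0760), and it was not called. It ranked 8 of 133 toward the 5p arm, while the median hairpin was at -0.12. Without siCtrl replicate 1 the change was 1.37 and passed (adjusted p = 0.0315), as it did without siSFPQ-2 replicate 2 at 1.23 (adjusted p = 0.0319). A pseudocount of 5 in place of 0.5 gave 0.21 (adjusted p = 0.648), and a fit of only the groups compared gave an adjusted p of 0.188. Against siNONO the change was 1.03 ± 0.33 and was called (limma, adjusted p = 0.0187), where 39.1% of hairpins were called and 14.3% toward the 5p arm. That call was lost with a pseudocount of 5, without siNONO-4 replicate 3 and without siSFPQ-2 replicate 3, which gave 0.58, 0.91 and 0.79. For NONO and NEAT1 depletion the mir-141 change was -0.02 ± 0.40 and -0.59 ± 0.40, and limma called 0% of hairpins in either, with 12 and 6 at an unadjusted p under 0.05. mir-200c entered only with a minimum of 3 counts, where its change with siSFPQ was 1.24 ± 0.71 (limma, adjusted p = 0.238).

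**Figure D5:**
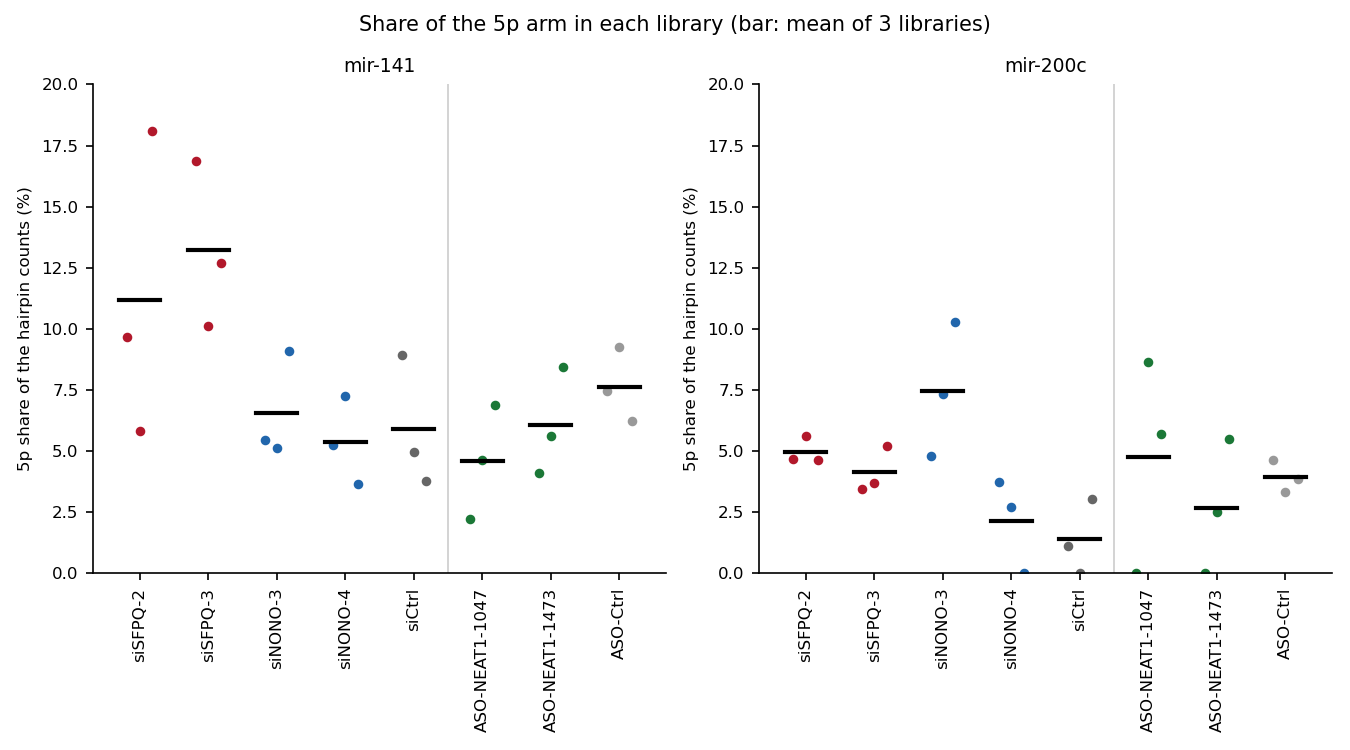
Share of the 5p arm in the counts of mir-141 and mir-200c (vertical axes, percent) in every library, with points for libraries and bars for means of 3. The siSFPQ libraries of mir-141 run from 5.83 to 18.1%, against 3.75 to 8.93% in siCtrl. Those of mir-200c run from 3.45 to 5.59%, against 0 to 3.03% in siCtrl, where the 5p arm had 2 counts.

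The nearest tested miRNA loci were looked at on each side of the clusters. On chromosome 1 the next one before the cluster, 534439 bases away, was miR-12136, which rose in siSFPQ cells (log2 fold change 1.40 ± 0.22, adjusted p = 1.36e-05), and the next one after it was miR-551a, 2391634 bases away, which rose as well (1.00 ± 0.35, adjusted p = 0.0207). On chromosome 12 no tested locus preceded the cluster, and miR-1293, 43270006 bases after it, did not pass (0.47 ± 0.38, adjusted p = 0.326). All 3 lie on the minus strand, opposite to the miR-200 hairpins.

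The 5 tested miRNAs outside the family whose log2 CPM over the 24 libraries was most like the mean of the tested members were miR-135b-3p (r = 0.94), miR-550a-3p, miR-2355-5p, miR-302b-3p and miR-302c-3p. The 24 libraries include the same 6 siSFPQ libraries for every miRNA, and in the 18 others r was between 0.23 and 0.41. miR-135b-3p averaged 81.3 ± 13.8 CPM in siSFPQ and 9.65 ± 4.33 CPM in siCtrl cells. miR-550a-3p, which carries the seed of miR-200c-5p, averaged 322 ± 31.5 and 77.9 ± 16.8 CPM in the same 2 groups, and miR-2355-5p 34.8 ± 9.34 and 2.87 ± 0.50 CPM. The 2 miR-302 members, known from pluripotent stem cells, averaged 444 ± 359 and 494 ± 403 CPM in siSFPQ cells and 0.111 ± 0.192 CPM each in siCtrl cells, a level under 3 counts.

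Other miRNAs linked to epithelial cells were taken from a list of 22 outside the miR-200 family. Of these, 16 were tested, 7 rose and 1 fell in siSFPQ cells, where 25.6% of all 626 rose and 22.7% fell, with a median log2 fold change of 0.17 against 0.02 over all 626. Their summed level was 11292 to 15520 CPM in siSFPQ libraries and 6911 to 11247 CPM in siCtrl libraries, ranges that all but touched. The sum rests on a few abundant miRNAs, and the list did not move as 1, as given next. Among those that rose, miR-215-5p averaged 2030 CPM in siSFPQ and 603 CPM in siCtrl cells, and miR-194-5p 1083 and 382 CPM. Of the 4 most abundant, miR-192-5p rose to 4218 ± 446 CPM in siSFPQ cells, against 1738 ± 686 CPM in siCtrl cells (1.28 ± 0.21, adjusted p = 2.6e-05). The other 3, the cotranscribed miR-182-5p, miR-183-5p and miR-96-5p, were at 0.17 ± 0.17, -0.21 ± 0.24 and 0.17 ± 0.22 and did not pass. The 7 that rose were both arms of miR-192, miR-194 and miR-215, and miR-96-3p. Arms of 1 hairpin share a precursor, so the 7 were not 7 separate events. For miR-215-3p and miR-96-3p the siCtrl means lay under the filter's cutoff of 3.14 CPM. Whether either passed the filter only through its siSFPQ libraries was not checked, and a miRNA that did so had to differ. The 1 that fell was miR-205-5p (-1.05 ± 0.41, edgeR, adjusted p = 0.0371). miR-203a-3p, a miRNA of stratified epithelium, had no count in any library. Of 23 miRNAs linked to mesenchymal cells or to the passage into them, 18 were tested, 4 rose and 5 fell, with a median of -0.29. Their sums overlapped, at 167157 to 218565 CPM in siSFPQ libraries and 194749 to 240546 CPM in siCtrl libraries. Among the most abundant of these, miR-9-5p fell (-0.65 ± 0.12, adjusted p = 0.000169), miR-199a-3p fell (-0.43 ± 0.14, adjusted p = 0.0131), miR-21-5p rose (0.91 ± 0.25, adjusted p = 0.00485) and miR-10b-5p did not pass (-0.30 ± 0.19). NONO depletion raised 2 of the epithelial list, where 0.958% of all tested miRNAs were called higher, and changed none of the mesenchymal list, and NEAT1 depletion changed none of either (edgeR).

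Neuroendocrine and neural miRNAs numbered 13, of which 10 were tested, 2 rose and 4 fell in siSFPQ cells, with a median of -0.08. Over all 626 tested miRNAs, 25.6% rose and 22.7% fell. miR-9-5p, also on the mesenchymal list, miR-7-5p (-0.69 ± 0.12, adjusted p = 7.88e-05) and miR-218-5p (-1.62 ± 0.17, adjusted p = 5.91e-08) fell, and miR-9-3p did not pass. The fourth that fell was miR-137-3p (-0.54 ± 0.22, adjusted p = 0.0494). The 2 called higher were miR-375-3p, an islet and neuroendocrine miRNA, and miR-138-5p, a neuronal one. The siCtrl means of both lay under the filter's cutoff of 3.14 CPM. Whether either passed the filter only through its siSFPQ libraries was not checked, and a miRNA that did so had to differ. miR-375-3p averaged 5.62 ± 1.72 CPM in siSFPQ and 0.669 ± 0.409 CPM in siCtrl cells (2.99 ± 0.63, adjusted p = 0.000516). miR-138-5p averaged 5.33 ± 1.59 CPM in siSFPQ and 1.62 ± 0.274 CPM in siCtrl cells (1.72 ± 0.36, adjusted p = 0.000517). The list summed to 63547 to 86313 CPM in siSFPQ libraries and to 105696 to 121908 CPM in siCtrl libraries, without overlap. Most of that sum was miR-9-5p, which averaged 58073 CPM in siSFPQ and 90578 CPM in siCtrl cells. Of the markers of other cell types (endothelium, muscle, blood and liver), 11 were matched and 7 of these were tested. None rose and 4 fell in siSFPQ cells, where 25.6% of all 626 rose and 22.7% fell. Among the 4 were miR-126-3p of endothelium (-0.45 ± 0.14, edgeR, adjusted p = 0.013) and miR-1-3p of muscle (-1.19 ± 0.23, adjusted p = 0.00024). The summed level of the 11 was 1013 to 1257 CPM in siSFPQ libraries and 1515 to 1832 CPM in siCtrl libraries. miR-122-5p of liver had no count in any library, and miR-223-3p of myeloid cells had 9 counts in all 24. The part of these markers in the change of the miR-200 family was not tested.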

How the data were processed

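Small RNA of SBC-3 cells was sequenced in 24 libraries. The authors deposited raw counts of reads for each locus of a mature miRNA and each spike-in, made with featureCounts (Subread 2.0.3) according to the headers. Further tools named in the submitters' processing notes are Trimmomatic 0.39, Bowtie 1.3.0, UMI-tools 1.1.1, DESeq2 1.38.1 and hg38. The sources used here do not say whether reads sharing a molecular identifier were collapsed or how reads fitting several loci were counted.

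For each of the 2652 mature miRNAs the locus with the most counts over all libraries was kept. More than 1 locus was present for 169 of them, and their levels are those of the kept locus. Summing the loci was run as an alternative. Names came from RefSeq or hairpin positions with a tolerance of 3 bases. All 9 members have 1 locus. The main test used edgeR 4.0.16, run in R 4.3.3 beside limma 3.58.1: filterByExpr with a minimum count of 10, TMM, 1 term per group over all 24 libraries (16 residual degrees of freedom), the quasi-likelihood test and Benjamini-Hochberg adjustment over 626 miRNAs, which held 99.97% of the counts. For SFPQ, NONO and NEAT1 the mean of both reagents was set against the matching control. Arm ratios were tested with limma on log2((5p + 0.5)/(3p + 0.5)). The tests were checked on simulated data. Alternatives were other scalings and filters, DESeq2 1.42.0, a replicate block, only the groups compared, and each library left out. A fit without both libraries that stand apart was added after seeing the data.

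Members and lists were chosen with earlier results of these data known. Named outside the family were the 5 miRNAs most like it, the nearest tested loci, and up to 4 of the most abundant tested miRNAs of each list. miR-375-3p, miR-138-5p, miR-137-3p, miR-203a-3p, miR-122-5p and miR-223-3p were named after their values were seen. So were the called members of the epithelial list other than miR-192-5p. Depth limits members with few counts, and intervals cover counting error only.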

Additional observations from a re-analysis of the deposited data

How the results depend on the processing

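The number of members called was the same under every alternative run and with each library left out, with 1 exception. It was 6 for SFPQ against siCtrl, NONO or the NEAT1 effect, and 0 for NONO (both siRNAs pooled), NEAT1 and the controls. The 6 include miR-200c-5p, which is in the main fit only through its siSFPQ libraries, so that its call is no result. The exception was a minimum mean of 10 CPM, which removed miR-200c-5p and miR-429 and gave 5 in place of 6. With library totals or spike-in totals in place of TMM, the median of all tested miRNAs for SFPQ moved to 0.47 or 0.21. The fit with the replicate number as a block called 6, 0, 0, 6, 6 and 0 members in those 6 comparisons and moved the mir-141 arm change for SFPQ against siCtrl to 1.01 (adjusted p = 0.0768) and against NONO to 1.03 (adjusted p = 0.0211). Same-numbered libraries did not deviate together in every pair, with correlations between -0.42 and 0.62. The highest were 0.62 for replicate 1 of ASO-NEAT1-1047 with ASO-Ctrl and 0.53 for replicate 3 of siSFPQ-2 with siSFPQ-3. With 3 libraries to a group, these values cannot settle whether the numbers pair the samples.

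Values that did not pass changed sign as follows. miR-429 with NONO was at -0.038 with spike-in totals and -0.47 without both libraries that stand apart. With NEAT1, leaving out both gave -0.13 for miR-200b-3p, -0.14 for miR-200c-5p and -0.11 for miR-200c-3p, and miR-141-3p was at -0.015 with no filter, -0.0011 with spike-in totals and -0.0046 with loci summed. For ASO-Ctrl against siCtrl, leaving out both gave -0.12 for miR-200a-3p, 0.10 for miR-200c-3p and -0.16 for miR-141-3p, and a minimum of 10 CPM gave -0.0094 for miR-200a-3p. With each library left out in turn, values ranged from -0.47 to 0.50 for miR-429 with NONO. With NEAT1 they ranged from -0.13 to 0.29 for miR-200b-3p, -0.17 to 0.089 for miR-200a-3p, -0.011 to 1.40 for miR-429, -0.55 to 0.43 for miR-200c-5p, -0.11 to 0.24 for miR-200c-3p and -0.14 to 0.17 for miR-141-3p. For ASO-Ctrl against siCtrl they ranged from -0.12 to 0.28 for miR-200a-3p, -1.34 to 0.14 for miR-429, -0.51 to 0.10 for miR-200c-3p and -0.17 to 0.33 for miR-141-3p. Hairpins called for SFPQ numbered 32, and 17 with a minimum of 50 counts, where fewer hairpins are tested. The mir-141 arm change with NONO, -0.02 in the full fit, ranged from -0.28 to 0.34 with each library left out. Hairpins called ranged from 27 to 37, and the cluster difference from 0.29 to 0.52, with each library left out. That difference was 1.63 with the mean of log2 CPM. The cause of the other changes was not tested.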
